A study of Mus musculus with 12 samples.

Results

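The serum amyloid A genes Saa1, Saa2, Saa3 and Saa4 and 6 further acute phase genes, Hp, Orm1, Orm2, Itih3, Itih4 and Lcn2, were followed in mouse liver. The set is given by name, and no measured value enters its rule. Earlier results of these data were known when the genes and lists were chosen. All 10 are among the 51912 gene identifiers in the count table, and all 10 passed the filter on low counts that left 18098 genes for testing. Liver RNA of 12 mice was read by 3' mRNA sequencing, which counts the ends of polyadenylated transcripts, and the study asked what loss of MLKL does in diet-induced obesity and fatty liver. There were 4 groups of 3 animals: Mlkl-/- mice on a high-fat diet (HFD), wild-type (WT) mice on HFD, Mlkl-/- mice on normal chow (ND) and WT mice on ND. The HFD held 36% fat, and lipid gave 59% of its energy. Feeding began at an age of 8 to 9 weeks. Feeding lasted 25 weeks per the sample labels, and 16 weeks or more per the series text. Mlkl encodes the membrane-permeabilizing effector of necroptosis, a lytic form of cell death. The genotype label is Mlkl-/- with no Cre or cell type named, and livers came from fed animals picked for average organ weights. Strain, sex and the deleted exons are not given in the sources.

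The acute phase response is the change in plasma proteins made by hepatocytes after injury or infection. Interleukin-6, acting through STAT3, and interleukin-1 and tumour necrosis factor, acting through NF-kappa-B and C/EBP factors, are its best known drivers. SAA1 and SAA2 are apolipoproteins of high-density lipoprotein and are among the most strongly induced liver products in mice, SAA3 is also made by macrophages and adipocytes, and SAA4 is the constitutive member of the family. Haptoglobin (Hp) binds free haemoglobin, the orosomucoids (Orm1, Orm2) are plasma glycoproteins that bind drugs and lipids, Itih3 and Itih4 encode inter-alpha-trypsin inhibitor heavy chains, and lipocalin 2 (Lcn2) binds bacterial siderophores.

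The 4 Saa genes lie side by side on chromosome 7 of mm10, in the order Saa3, Saa4, Saa1 and Saa2. Saa1 (ENSMUSG00000074115, minus strand) spans 46740497 to 46742980 and Saa2 (ENSMUSG00000057465, plus strand) spans 46751790 to 46754313. These genes are transcribed away from each other with 8810 bases between them. Orm1 and Orm2 are neighbours on chromosome 4, Itih4 and Itih3 on chromosome 14, and Lcn2 is on chromosome 2. Hp lies on chromosome 8, and 1.73 Mb separates it from Mlkl, so DNA that flanks the targeted gene may differ between the genotypes at Hp too; what that does to Hp was not tested.

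RefSeq promoters (GRCm38.p6) were matched for 8 of the 10 genes, all but Hp and Orm1. The 250 bases before the start of Saa1 and of Saa2 were 94.8% identical, whereas those of Saa1 and Saa4 were 49.5% identical. Saa1 and Saa2, the twin genes, ranked the 12 libraries in the same order, and Saa4 followed that order less closely. The part of the promoters in these patterns was not tested. The stretches from base 250 to base 45 before the start of both twin genes and of the constitutive Saa4 are shown. They are Saa1 at chr7:46743025-46743230 on the minus strand, Saa2 at chr7:46751583-46751788 on the plus strand and Saa4 at chr7:46732648-46732853 on the minus strand. Capitals mark matches to the C/EBP motif TTGCNNAA on either strand.
Saa1: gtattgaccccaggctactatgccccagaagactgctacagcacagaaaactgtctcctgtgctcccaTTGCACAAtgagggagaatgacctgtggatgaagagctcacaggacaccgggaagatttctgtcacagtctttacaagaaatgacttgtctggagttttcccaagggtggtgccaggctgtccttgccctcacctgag
Saa2: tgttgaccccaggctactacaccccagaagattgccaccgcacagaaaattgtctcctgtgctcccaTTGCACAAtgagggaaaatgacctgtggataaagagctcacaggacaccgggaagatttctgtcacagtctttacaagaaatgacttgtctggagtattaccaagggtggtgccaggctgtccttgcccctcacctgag
Saa4: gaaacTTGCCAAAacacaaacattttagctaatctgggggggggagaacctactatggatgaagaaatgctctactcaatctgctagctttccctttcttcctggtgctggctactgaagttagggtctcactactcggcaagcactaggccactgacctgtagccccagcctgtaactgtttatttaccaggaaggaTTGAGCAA
Counted from the RefSeq starts, the match TTGCACAA began 182 bases before that of Saa1 and 183 bases before that of Saa2. The 250 bases of Saa2 end at 46751832, so its RefSeq start lies inside the gene span given above and not at its first base. Saa4 held 2 matches with other letters at the N positions, and Saa3, Orm2 and Lcn2 each held a match as well. Among 32851 mouse promoters of the same length, 9.56% held this motif. The STAT3 motif TTCNNNGAA was found in Itih4 and in 7.02% of all promoters. The NF-kappa-B motif GGGANTTTC was found in none of the 8 and in 0.941% of all promoters. Only this pattern and these 250 bases were searched, so other forms of an NF-kappa-B site would be missed. The motifs were searched on both strands, and matches to different motifs did not overlap in these genes.

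The libraries held 19435391 to 32120426 counts each. Transcripts of Mlkl numbered 16, 9 and 34 in Mlkl-/- HFD livers, 134, 252 and 88 in WT HFD livers, 16, 15 and 20 in Mlkl-/- ND livers and 72, 76 and 92 in WT ND livers, so no Mlkl-/- library reached a WT level. All 8 hepatocyte markers were detected in every library, with a summed level of 51009 to 93824 CPM (counts scaled to a common library size). A code of unknown meaning follows the diet in each title. The lower code of each diet stands on WT ND 1 and 2, Mlkl-/- ND 1, WT HFD 1 and Mlkl-/- HFD 1 and 2, and the higher code on the rest. In 6 libraries 8 rRNA-like loci were high (3484 to 9239 CPM): Mlkl-/- ND 1, WT HFD 2 and 3 and all 3 Mlkl-/- HFD livers. They took 378 to 656 CPM in the other 6.

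Saa1 and Saa2 varied far more between animals of 1 group than most liver genes did. Saa1 had 269, 123 and 1304 CPM in Mlkl-/- HFD livers, against 103, 96.1 and 40.5 CPM in WT HFD livers. It had 790.1, 507 and 1772 CPM in Mlkl-/- ND livers, against 28.6, 33.0 and 365 CPM in WT ND livers. On each diet every Mlkl-/- library was above every WT library, and the third animal of Mlkl-/- HFD, of Mlkl-/- ND and of WT ND stood well above the other two of its group. Saa2 followed the same order of libraries. It had 201, 98.9 and 1223 CPM in Mlkl-/- HFD livers, against 87.8, 78.0 and 33.7 CPM in WT HFD livers. In Mlkl-/- ND livers it had 618, 439 and 1665 CPM, against 15.8, 17.2 and 319.9 CPM in WT ND livers. Its highest library was 106 times its lowest, and that of Saa1 was 61.9 times its lowest.

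The last 300 bases of the Saa1 and Saa2 transcripts were 92.4% identical, so reads of 3' libraries may be shared between the copies and the split between them is uncertain. Saa2 took 42.7% to 48.4% of the counts of both genes in 10 libraries. In WT ND 1 and 2, the libraries with the lowest totals of the pair, it took 35.5% (95% Wilson interval 32.7 to 38.5) and 34.3% (31.5 to 37.3). These intervals cover counting error only.

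Saa3 was low everywhere and exceeded 10 CPM in 2 Mlkl-/- libraries. Its level was 2.91, 3.56 and 10.1 CPM in Mlkl-/- HFD livers, against 4.09, 1.67 and 3.81 CPM in WT HFD livers. It was 5.16, 4.52 and 26.5 CPM in Mlkl-/- ND livers, against 2.73, 3.63 and 4.98 CPM in WT ND livers. Groups overlapped on both diets. Neutrophil markers were near the detection limit: 3 of 12 passed the filter, and their summed level was 4.29 to 4.78 CPM in Mlkl-/- HFD, 3.52 to 7.10 CPM in WT HFD, 3.34 to 9.60 CPM in Mlkl-/- ND and 3.34 to 4.49 CPM in WT ND livers. The highest of these sums belonged to Mlkl-/- ND 3, the library with the most Saa3 and Lcn2; the part of neutrophils in those levels was not tested. In bulk tissue, fewer cells of a type and less RNA per cell cannot be told apart.

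Saa4, the constitutive family member, behaved differently from the other three. It had 482, 351 and 477 CPM in Mlkl-/- HFD livers, against 181, 134 and 212 CPM in WT HFD livers. On ND it had 370.0, 332 and 415 CPM in Mlkl-/- livers, against 293, 326 and 333 CPM in WT livers. The 3 WT HFD livers were the lowest of all 12, and the other 9 lay within 293 to 482 CPM. Its within-group SD of log2 CPM was 0.23, below the median of 0.29 over all genes tested.

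**Figure D1:**
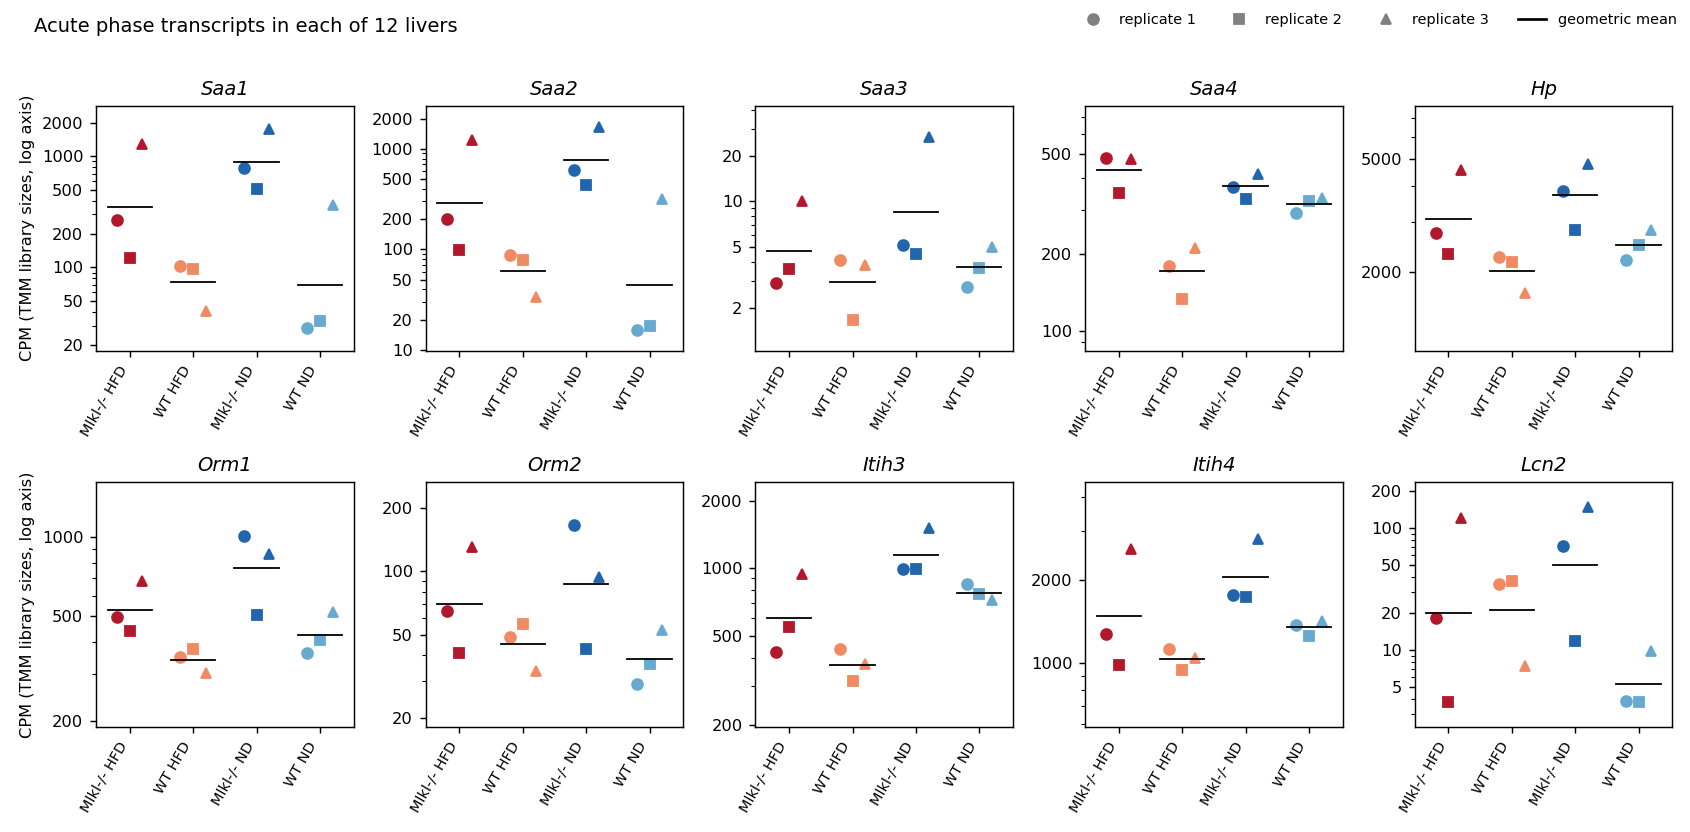
Level of each gene in each of 12 livers, as CPM with TMM library sizes on a log axis that differs between panels; points are libraries, marker shapes are replicate numbers within a group and black bars are geometric means. Saa1 and Saa2 spread widely within groups, whereas Saa4 is low in the 3 WT HFD livers and close to even elsewhere.

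Haptoglobin had the highest level of the 10 genes. It stood at 2740.4, 2316 and 4569.8 CPM in Mlkl-/- HFD livers, against 2249, 2172 and 1685 CPM in WT HFD livers. On ND it stood at 3844, 2803 and 4812 CPM in Mlkl-/- livers, against 2197, 2487 and 2808 CPM in WT livers. The genotypes did not overlap on HFD, and on ND they overlapped only through Mlkl-/- ND 2, which lay just below WT ND 3. Reads of 3' libraries do not scale with transcript length, so CPM is used here without length scaling.

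Orm1 had 497, 439 and 681 CPM in Mlkl-/- HFD livers, against 349.8, 375 and 303 CPM in WT HFD livers. It had 1015, 505 and 866 CPM in Mlkl-/- ND livers, against 361, 406 and 519 CPM in WT ND livers. As for Hp, the genotypes were apart on HFD and met on ND through Mlkl-/- ND 2. Orm2 ran from 40.8 to 130.4 CPM in Mlkl-/- HFD livers and from 33.7 to 56.2 CPM in WT HFD livers, and from 43.0 to 166 CPM in Mlkl-/- ND livers and from 29.2 to 52.8 CPM in WT ND livers. The last 300 bases of the Orm1 and Orm2 transcripts were 97.7% identical, so the split of reads between these genes is uncertain too.

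Itih3 separated the diets more than the genotypes. It had 423, 547 and 945 CPM in Mlkl-/- HFD livers and 990.1, 991 and 1508 CPM in Mlkl-/- ND livers. In WT livers it had 436, 315 and 375 CPM on HFD and 853, 765 and 723 CPM on ND. The HFD livers of each genotype lay below its ND livers without overlap. Its neighbour Itih4 had 1268, 985 and 2578 CPM in Mlkl-/- HFD livers, against 1121, 939 and 1038 CPM in WT HFD livers, and 1768, 1732 and 2819 CPM in Mlkl-/- ND livers, against 1372, 1250.1 and 1422 CPM in WT ND livers.

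Lcn2 differed widely between animals of 1 group. It had 18.2, 3.75 and 122 CPM in Mlkl-/- HFD livers, against 34.9, 36.7 and 7.42 CPM in WT HFD livers. It had 71.2, 11.8 and 149 CPM in Mlkl-/- ND livers, against 3.85, 3.78 and 9.86 CPM in WT ND livers. The Mlkl-/- livers were all above the WT livers on ND, and on HFD both the lowest and the highest library were Mlkl-/-.

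The same few animals were high across the genes. Mlkl-/- ND 3 was among the 3 highest libraries for 10 of the 10 genes, and Mlkl-/- HFD 3 and Mlkl-/- ND 1 were for 9 each. WT HFD 3 was among the 3 lowest for 8 genes and WT ND 1 for 7. The 10 genes together took 0.456% to 1.24% of the counts in Mlkl-/- HFD livers, 0.398% to 0.512% in WT HFD livers, 0.683% to 1.35% in Mlkl-/- ND livers and 0.514% to 0.624% in WT ND livers. Of the 3 high libraries, Mlkl-/- ND 1 and Mlkl-/- HFD 3 had high rRNA-like loci and Mlkl-/- ND 3 did not, and Mlkl-/- ND 1 carried the lower title code whereas the other two carried the higher.

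**Figure D2:**
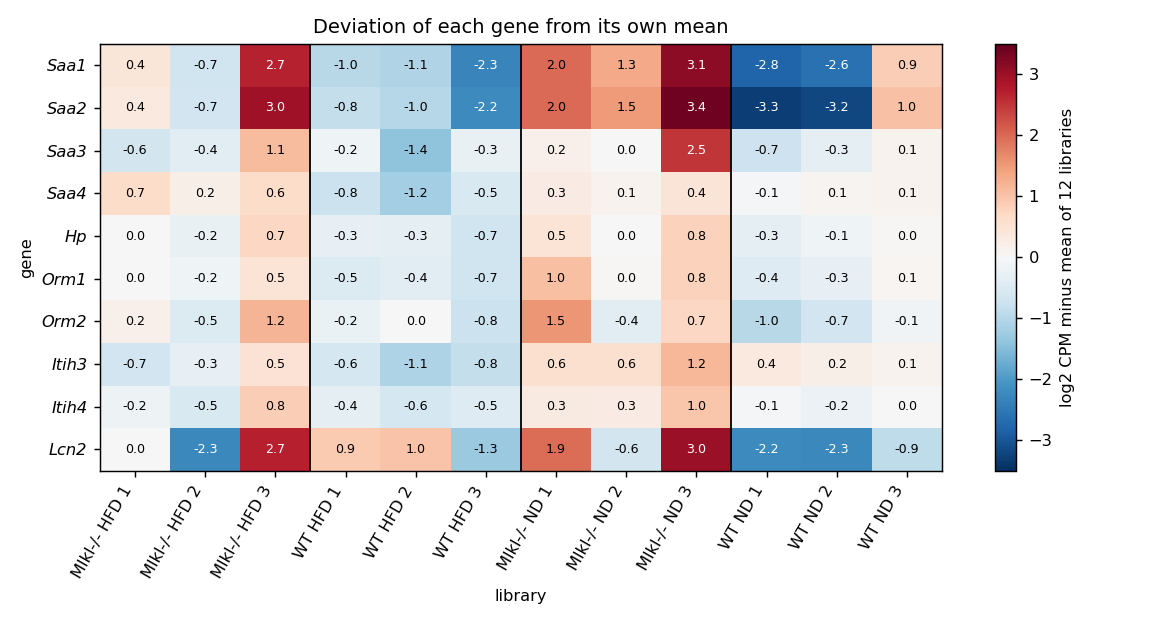
Log2 CPM of each gene minus its own mean over 12 libraries (colour and printed value), with libraries in columns by group. Mlkl-/- HFD 3, Mlkl-/- ND 1 and Mlkl-/- ND 3 are positive for all 10 genes.

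Within groups, the SD of log2 CPM was 1.47 for Saa1, 1.67 for Saa2 and 1.74 for Lcn2, all above the 99th percentile of the genes tested. It was 0.94 for Saa3 and 0.71 for Orm2, and 0.35 for Hp and Orm1, 0.37 for Itih3 and 0.42 for Itih4. Of 10889 genes with a mean of at least 5 CPM, 40 had an SD at or above that of Saa1. Differences between animals of 1 group were thus as large as several log2 units for the inducible genes, which sets wide errors on every comparison of Saa1, Saa2 and Lcn2 below.

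**Figure D3:**
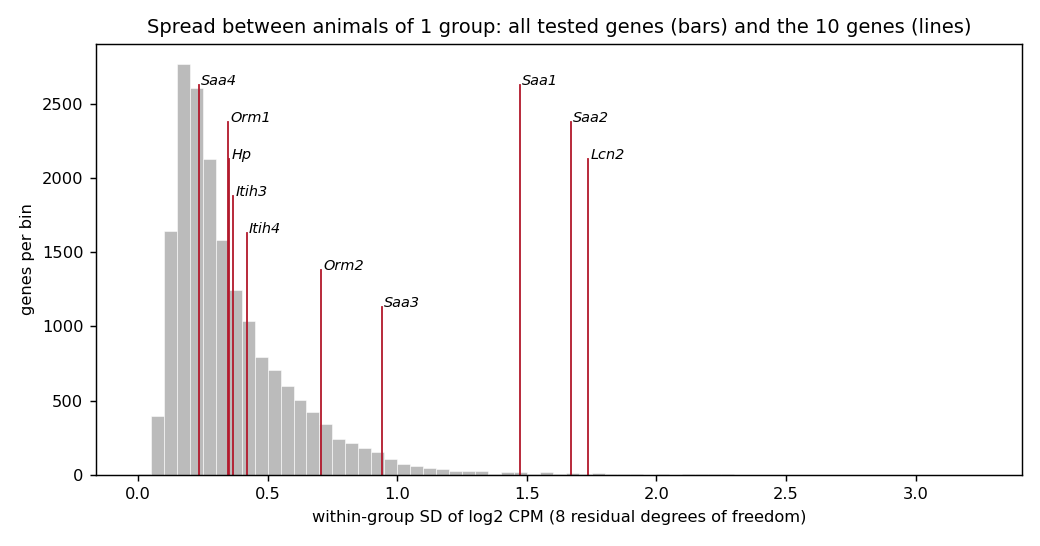
Number of tested genes (bars, y axis) by within-group SD of log2 CPM (x axis, log2 units), with a line at the SD of each of the 10 genes. Saa1, Saa2 and Lcn2 lie in the far right tail at 1.47 to 1.74, and Saa4 lies left of the median of 0.29.

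The first comparison asked what loss of Mlkl did on HFD. Saa4 was higher in Mlkl-/- HFD than in WT HFD livers by 1.31 ± 0.18 (log2 fold change ± SE). Its adjusted p was 0.0201 by edgeR's quasi-likelihood test with Benjamini-Hochberg adjustment over all genes tested. The WT HFD livers were the lowest of all 12 for Saa4, and Mlkl-/- HFD livers differed from Mlkl-/- ND livers by 0.23 ± 0.18. Genes with an adjusted p below 0.05 count as called. By that rule 5 genes, 0.0276%, were called in either direction and 1 gene, 0.00553%, was called higher, so Saa4 was the gene called higher in this comparison. The number of genes called in either direction was 0 without WT HFD 1, WT HFD 2 or Mlkl-/- HFD 1, 75 without Mlkl-/- ND 1, 189 without WT HFD 3, 21 without Mlkl-/- HFD 3, 1 without Mlkl-/- HFD 2, 2 without WT ND 2, 36 with library size only and 124 with no filter beyond 1 count. Within the lower title code Saa4 differed by 1.18 and within the higher code by 1.5 on the log2 scale. The call was lost when the fit held the 2 HFD groups alone (1.31, adjusted p 0.0542), and without WT ND 2, WT HFD 1, WT HFD 2 or Mlkl-/- HFD 1, where the adjusted p was 0.0566, 0.161, 0.153 and 0.116.

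The other 9 genes were not called on HFD, although all 10 fitted differences were positive. The fitted difference was 2.82 ± 1.27 for Saa1 (adjusted p 0.330 by edgeR) and 2.93 ± 1.43 for Saa2 (adjusted p 0.363). It lay between 0.64 and 0.86 for Hp, Orm1, Orm2, Itih3, Itih4, Saa3 and Lcn2, and the median over the 10 genes was 0.79, against 0.01 over all genes tested. At an unadjusted p under 0.05, 5 of the 10 were higher, against 7.21% of all genes. Saa1, Saa2, Saa4, Hp and Orm1 were higher without overlap of the groups, as were 10.6% of all genes. Without Mlkl-/- HFD 3, 1 of the 10 genes was at an unadjusted p under 0.05, Saa1 differed by 1.29 and Lcn2 turned to -1.26. Without WT HFD 3, or with library size only in place of TMM, 2 of the 10 were. Within the lower title code, which leaves that library out, Saa1 differed by 0.81 and Lcn2 by -2.06, and within the higher code they differed by 4.38 and 2.88.

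Markers of other cell types were set beside these values. On HFD all 12 macrophage and Kupffer cell markers had a negative fitted difference (median -0.96), as had all 8 stellate cell and fibroblast markers (median -1.01) and all 8 sinusoidal endothelial markers (median -0.95), and all 8 hepatocyte markers had a positive one (median 0.53). Of the cholangiocyte markers 2 of 7 tested and of the neutrophil markers 1 of 3 tested had a positive one. On ND the difference was positive for 10 of 12 macrophage, 8 of 8 stellate cell, 1 of 8 endothelial and 2 of 8 hepatocyte markers, with medians of 0.22, 0.10, -0.06 and -0.23, and none was called. It was also positive on ND for 4 of 7 cholangiocyte and 2 of 3 neutrophil markers tested, with medians of 0.01 and 1.03, and none was called. The neutrophil markers were near the detection limit. All 7 adipocyte markers tested had a negative difference on both diets, with medians of -0.67 on HFD and -1.60 on ND. None of them was called, and their means over the 12 libraries were as low as 0.244 CPM, for Retn. Of the markers named for HFD, Fcgr2b, an inhibitory Fc receptor of sinusoidal endothelium, fell by 1.21 on the log2 scale (adjusted p 0.0353 by edgeR) and no other was called. The summed level of the macrophage markers was 147 to 274 CPM in Mlkl-/- HFD livers, against 310.5 to 448 CPM in WT HFD livers. The part of cell composition in the levels of the acute phase genes was not tested.

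The same comparison on ND set other livers against each other. All 12 libraries shared 1 filter, normalization and estimate of the spread, so its errors and p-values are not independent of the HFD livers. None of the 10 genes was called on ND, by edgeR or by DESeq2, where 1 gene in all, 0.00553%, was called by edgeR in either direction. All 10 fitted differences were again positive. Lcn2 differed by 3.71 ± 1.41, Saa2 by 2.95 ± 1.43, Saa1 by 2.84 ± 1.27, Saa3 by 1.67 ± 0.75 and Orm2 by 1.36 ± 0.54. Saa4 had the smallest difference, 0.23 ± 0.18. The median was 1.12, against 0.00 over all genes tested. At an unadjusted p under 0.05, 6 of the 10 were higher, against 2.81% of all genes, and Saa1, Saa2, Itih3, Itih4 and Lcn2 were higher without overlap, against 4.93% of all genes.

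On ND the count rested on single animals. Without Mlkl-/- ND 3, WT ND 1 or WT ND 2, 1 of the 10 genes was at an unadjusted p under 0.05, and with library size only 3 were. Leaving out HFD livers, which share the fit, moved the count too, to 4 without WT HFD 3 and 8 without Mlkl-/- HFD 3. All 10 differences stayed positive without any 1 of the 12 libraries. Saa1 differed by 5.04 without WT ND 3, the animal with 365 CPM. Within the lower title code, where Mlkl-/- ND 1 is set against WT ND 1 and 2, Saa1 differed by 4.68 and Lcn2 by 4.19, and within the higher code by 1.38 and 2.08.

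Averaged over both diets, Mlkl-/- livers were higher than WT livers for all 10 genes at an unadjusted p under 0.05, against 4.64% of all genes tested, but none of the 10 was called and 3 genes in all were, 0.0166%. Saa4 differed by 0.77 ± 0.13 with an adjusted p of 0.0598 by edgeR and Orm1 by 0.77 ± 0.17 with an adjusted p of 0.126. Hp (0.63 ± 0.18), Itih3 (0.67 ± 0.18) and Itih4 (0.64 ± 0.21) differed by like amounts, with adjusted p of 0.231, 0.216 and 0.298. Saa1 (2.83 ± 0.90), Saa2 (2.94 ± 1.01), Lcn2 (2.29 ± 0.94), Saa3 (1.24 ± 0.53) and Orm2 (1.06 ± 0.38) had larger differences and larger errors. The 10 genes share their animals and vary together, so their agreement in sign is not 10 separate observations. DESeq2 called 5 of them, Saa1, Saa4, Hp, Orm1 and Itih3, among 209 genes where edgeR called 3. Saa4 was called by edgeR without Mlkl-/- ND 2, WT HFD 3 or Mlkl-/- HFD 2 (adjusted p 0.0467, 0.0253 and 0.0289) and with the title code in the fit (adjusted p 0.0470), and Orm1 without Mlkl-/- ND 2 (adjusted p 0.0384). Both were called with no filter beyond 1 count. The number of genes called in all rose from 3 in these settings. It was 15 without Mlkl-/- ND 2, 33 without WT HFD 3 and 6 without Mlkl-/- HFD 2. With the title code in the fit it was 13, and with no filter beyond 1 count it was 74. Without Mlkl-/- HFD 3, 6 of the 10 were at an unadjusted p under 0.05.

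**Figure D4:**
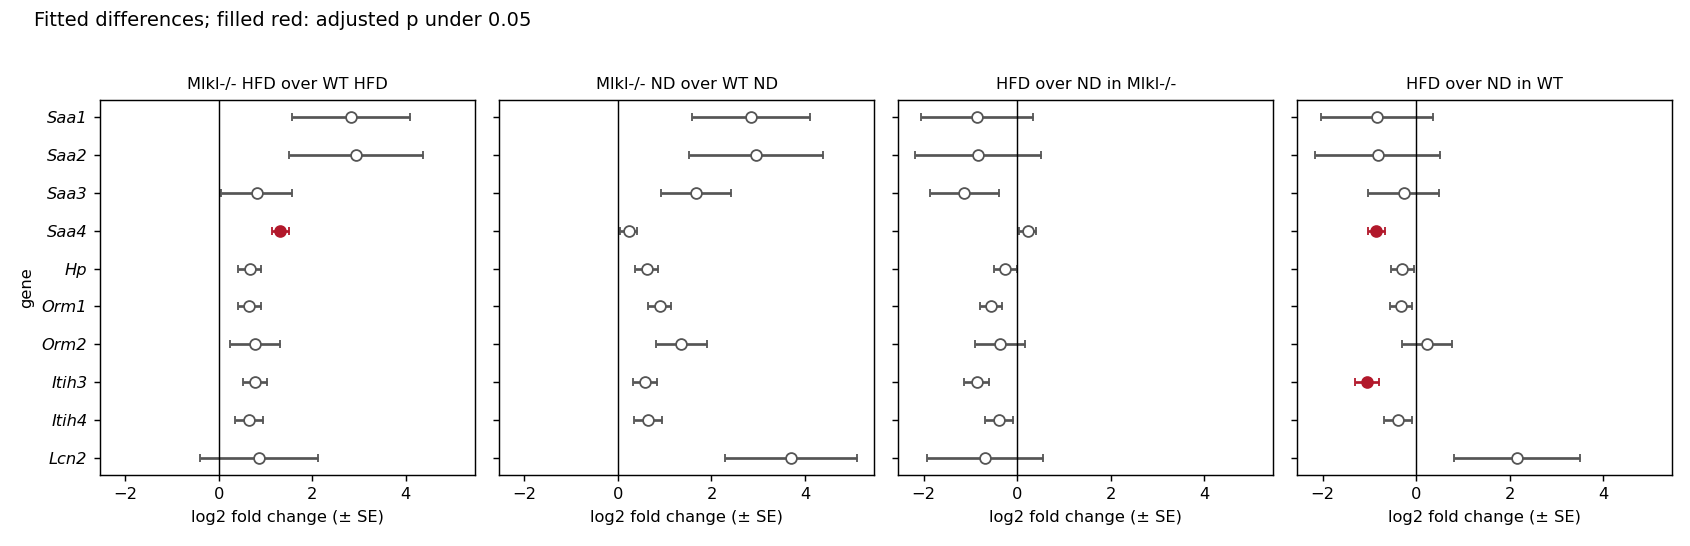
Fitted log2 fold change with its SE (x axis) for each gene (y axis) in 4 comparisons; filled red points have an adjusted p under 0.05. All points of both genotype comparisons lie right of 0, and the filled ones are Saa4 on HFD and, lower on HFD in WT livers, Saa4 and Itih3.

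The diet comparison in WT livers asked what HFD did with Mlkl present. Saa4 and Itih3 fell, by 0.85 ± 0.18 and 1.06 ± 0.26 on the log2 scale, with adjusted p of 0.0203 and 0.0345 by edgeR; 2.21% of all genes were called lower. Saa4, Itih3 and Itih4 were lower without overlap, as were 15.2% of all genes. The inducible Saa genes were not called, at -0.83 ± 1.19 for Saa1 and -0.82 ± 1.34 for Saa2, and both turned positive without WT ND 3 (1.39 and 2.03). Lcn2 had a positive difference of 2.16 ± 1.35 (adjusted p 0.423). In the same comparison all 8 hepatocyte markers had a negative difference (median -0.52), 6 of them without overlap, and none was called. Their summed level was 51009 to 73467 CPM in WT HFD livers, against 87998 to 93354 CPM in WT ND livers. The difference was positive for 11 of 12 macrophage markers (median 0.72), of which Gpnmb was called higher (4.14, adjusted p 0.0153 by edgeR), and for 8 of 8 stellate cell and fibroblast markers (median 0.95), of which Lum was called higher (adjusted p 0.0153). The part of cell composition in the fall of Saa4 and Itih3 was not tested. The calls of Saa4 and Itih3 were both lost without any 1 of WT ND 1, 2 and 3 and WT HFD 1 and 2, where the differences were -0.88 to -0.69 for Saa4 and -1.18 to -0.94 for Itih3, and with the level of the rRNA-like loci as a term, where they were -0.83 and -0.84 with adjusted p of 0.0754 and 0.171. The call of Itih3 was also lost without WT HFD 3 or Mlkl-/- ND 2 and with library size only (adjusted p 0.0854, 0.0514 and 0.0710).

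In Mlkl-/- livers none of the 10 genes was called between HFD and ND, where 0.359% of all genes were called in either direction. The unadjusted p by edgeR was 0.0332 for Orm1 and 0.00456 for Itih3, and DESeq2 called Itih3 (adjusted p 0.0407). The shares of all genes that met these 2 marks are not given here, so these values carry no comparison with other genes. Itih3 differed by -0.87 ± 0.26 (adjusted p 0.154 by edgeR; -1.26 and 0.0387 without Mlkl-/- HFD 3) and was lower without overlap, as were 7.49% of all genes. Saa4 differed by 0.23 ± 0.18, and Lcn2 by -0.68 ± 1.25. Averaged over genotypes, Itih3 fell by 0.96 ± 0.18 on the log2 scale (adjusted p 0.00742), and 3.62% of all genes were called lower. With the level of the rRNA-like loci as a term it differed by -0.74 and was not called (adjusted p 0.171). Without Mlkl-/- HFD 3, Itih4 was called lower too (-0.64, adjusted p 0.0298), against -0.39 ± 0.21 with all libraries.

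The difference of the diet effects was tested as an interaction. None of the 10 genes was called by edgeR, nor was any other gene (0%). Of the 10, Saa4 alone was at an unadjusted p under 0.05, and DESeq2 called it alone. The shares of all genes that met these 2 marks are not given here. DESeq2 called far more genes than edgeR elsewhere, 209 against 3 for the genotypes averaged over diets. The interaction of Saa4 was 1.08 ± 0.26 with an unadjusted p of 0.000739 and an adjusted p of 0.338, and the adjusted p by DESeq2 was 0.0305. For Saa1 the interaction was -0.02 ± 1.68 and for Lcn2 -2.84 ± 1.83, with errors of more than 1 log2 unit in both.

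Over the 12 libraries the 10 genes varied together. All 45 pairs had a positive Pearson r of log2 CPM with a median of 0.752, and 35 pairs by Pearson r and 31 by Spearman rho had an adjusted p under 0.05 in permutation tests (100000 resamples, two-sided, adjusted over the 45 pairs). Libraries were permuted without regard to group, so shared differences between groups enter these p-values. No p-value was computed on deviations from group means, and no share was computed over pairs of other genes. The median r was 0.674 on deviations from group means, 0.635 within the lower title code, where 40 of 45 pairs were positive, and 0.861 within the higher code. Without the 2 libraries farthest from the median of the first gene of each pair it was 0.617, with all 45 positive.

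The tightest pair was Saa1 and Saa2 (r 0.996, rho 1.00, adjusted p 0.00045 in the permutation test). Hp followed Orm1 (r 0.926, rho 0.944) and Itih4 (r 0.919, rho 0.881), and Itih3 followed Itih4 (r 0.865, rho 0.874). Within groups, Hp and Lcn2 had r 0.972 and Orm1 and Orm2 had r 0.971 on deviations from group means. The loosest pair was Saa4 and Lcn2 (r 0.145, rho 0.322, adjusted p 0.653 in the permutation test). Saa4 reached r 0.570 and rho 0.720 with Saa1 (adjusted p 0.0653 for r and 0.0197 for rho in the permutation tests). With Hp, Saa4 reached r 0.678 and rho 0.797. Reads may be shared between Saa1 and Saa2 and between Orm1 and Orm2, and the part of shared reads in their r was not tested.

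**Figure D5:**
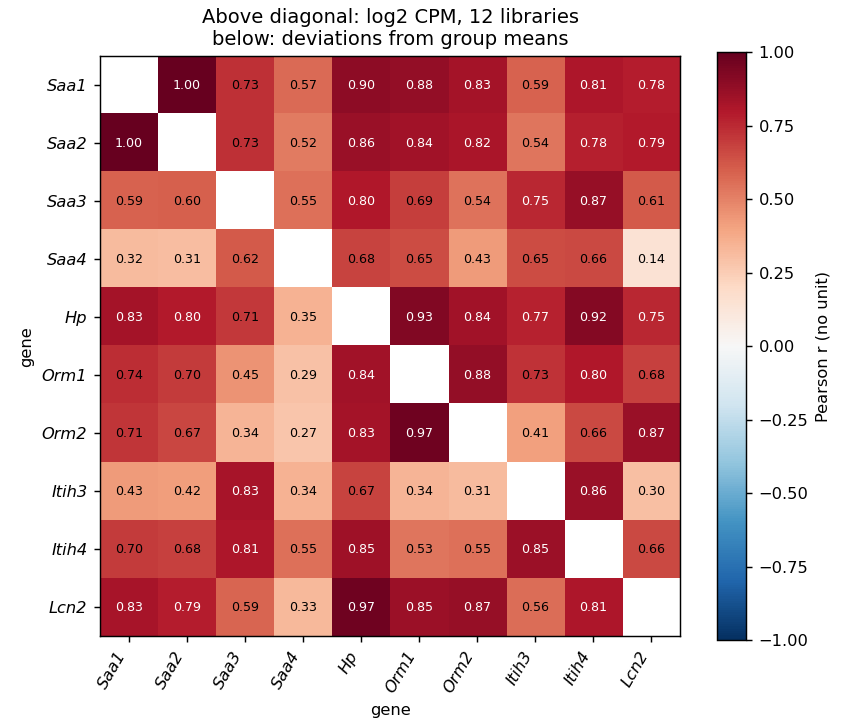
Pearson r between the log2 CPM of each pair of genes over 12 libraries (above the diagonal) and between deviations from group means (below). All values are positive, and the lowest above and the lowest below the diagonal both involve Saa4, down to 0.145 with Lcn2.

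Among 10879 other genes with a mean of at least 5 CPM, those most like Saa1 over the 12 libraries were Serpina3n (r 0.899), which encodes an acute phase antiprotease, Apcs (r 0.883), which encodes serum amyloid P, and Serpina10 (r 0.875). Serpina3n (r 0.945) and Apcs (r 0.902) were also 2 of the 3 most like Hp, with the metallothionein gene Mt1 (r 0.942). Those most like Itih3 were Fga (r 0.970), a fibrinogen chain, complement C3 (r 0.962) and Ganab (r 0.954). Those most like Saa3 were Ppp4r4 (r 0.913), Arhgef18 (r 0.884) and Afdn (r 0.863). These values describe likeness and carry no test.

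Other acute phase proteins gave the wider picture. Of 25 such genes 23 were tested, and in the genotype comparisons none was called. Their fitted differences were positive for 20 of 23 on HFD (median 0.83, against 0.01 over all genes) and for 20 of 23 on ND (median 0.51, against 0.00). Fga, for example, differed by 1.00 ± 0.30 on HFD and by 0.71 ± 0.30 on ND, and Serpina3k, a contrapsin-type antiprotease, by 1.06 ± 0.34 and 0.40 ± 0.33. In WT livers on HFD, 6 of the 23 were called lower and 1 higher, where 2.21% of all genes were called lower and 2.02% higher. Of the 23, 18 had a negative difference there (median -0.45, against -0.01 over all genes). The hepatocyte and macrophage markers of this comparison are given above. Hamp, the hepcidin gene, fell by 1.69 ± 0.41, Serpina3k by 1.46 ± 0.34 and Fgb by 1.21 ± 0.25 on the log2 scale, and Cd14, a co-receptor for endotoxin, rose by 1.6 ± 0.39, with adjusted p of 0.0471, 0.0305, 0.0195 and 0.0342 by edgeR. In Mlkl-/- livers on HFD none of the 23 was called, and a like number, 17, had a negative difference (median -0.44, against -0.02 over all genes).

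The partners of the inter-alpha-trypsin inhibitors fell with Itih3 on HFD in WT livers: Itih2 by 0.81 ± 0.20, Itih1 by 0.69 ± 0.16 and Ambp, which encodes their light chain bikunin, by 0.64 ± 0.16 on the log2 scale, with adjusted p of 0.0366, 0.0262 and 0.0359 by edgeR. These were 3 of 7 relatives tested, and the same 3 were called lower averaged over genotypes, against 2.21% and 3.62% of all genes. Of 10 proteins whose liver transcripts are known to fall in the acute phase response, on HFD 9 had a positive difference in Mlkl-/- livers over WT livers (median 0.20) and none was called, and on ND 4 had a positive and 6 a negative one (median -0.07). Alb, Ttr and Apoa1 of this list are also among the hepatocyte markers above, so the counts of these lists are not separate. On ND Serpina6, which encodes the corticosteroid-binding globulin, differed by -1.29 ± 0.25 (adjusted p 0.214 by edgeR). Ttr, which encodes transthyretin, differed by -0.37 ± 0.17 (adjusted p 0.903 by edgeR). Neither was called, and both were chosen after their values were seen. In WT livers on HFD, 1 of the 10 was called, Ahsg (fetuin A), which fell by 0.87 ± 0.20 on the log2 scale (adjusted p 0.0277).

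Of 30 cytokines, receptors, kinases and transcription factors of acute phase signalling, 28 were tested and none was called in any of the 7 comparisons. Il6 and Tnf were the 2 below the filter, with means of 0.0155 and 0.159 CPM over the 12 libraries. The most abundant, Cebpa and Hnf4a, which encode hepatocyte transcription factors, differed by 0.26 ± 0.18 and 0.46 ± 0.16 in Mlkl-/- over WT livers on HFD. In Mlkl-/- over WT livers the 28 genes went both ways. On HFD 17 had a positive and 11 a negative difference (median 0.16, against 0.01 over all genes). On ND 15 had a positive and 13 a negative one (median 0.04, against 0.00). Socs3, the feedback inhibitor of STAT3 signalling, was chosen from these after its values were seen. It differed by 1.14 ± 0.29 on HFD (adjusted p 0.138 by edgeR) and by 0.44 ± 0.29 on ND, and does not stand for the list.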

How the data were processed

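Per the labels' protocols, liver RNA was made into Lexogen QuantSeq 3' libraries and sequenced on a NextSeq instrument. The authors deposited raw counts per gene and library with no normalization. Per the submitters' processing notes, cutadapt 1.9, HISAT2, featureCounts and limma were used with mm10; the annotation, strand setting and handling of multi-mapping reads are not given in the sources. Symbols were found for 51633 of 51912 identifiers.

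The genes and lists were chosen with earlier results of these data known, and the named genes follow this rule: all 10 genes, up to 4 called genes of each list by fold change or else its 2 most abundant, and the 3 genes most like Saa1, Saa3, Hp and Itih3. Genes said to be chosen after their values were seen stand outside this rule. With edgeR 4.0.16 (R 4.3.3), filterByExpr (10 counts, 15 in total) left 18098 genes. TMM factors ran from 0.922 to 1.16. A model with 1 mean per group (8 residual degrees of freedom, robust quasi-likelihood) gave 7 contrasts, adjusted by Benjamini-Hochberg over all genes. CPM uses TMM library sizes, and log2 CPM a prior count of 2. SE is the fitted log2 fold change divided by the square root of its F statistic. P-values measure the spread between these animals, and counting intervals cover counting error only. Replicates of each group were distinct libraries: a chi-square over genes came to 19.4 to 137 per degree of freedom. The code was tested on simulated data. Alternatives were RLE size factors, library size only, 2 other filters, DESeq2 1.42.0, limma-voom (3.58.1), non-robust dispersions, the compared groups alone, the title code or the rRNA-like level as a term, and leaving out each library.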

Additional observations from a re-analysis of the deposited data

How the results depend on the processing

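No paired analysis was possible because the labels give the animals no shared replicate numbers. Of 70 fitted differences (10 genes in 7 comparisons), 51 kept their direction under every alternative run. Those that reversed were Lcn2 in Mlkl-/- over WT livers on HFD (-0.0616 by limma-voom, and -1.26 to 1.40 without 1 library), and in WT livers on HFD Saa1 (0.0710 by limma-voom, -1.28 to 1.39 without 1 library), Saa2 (0.44 by limma-voom, -1.30 to 2.03), Saa3 (0.45 with the rRNA-like level as a term, -0.50 to 0.0565) and Orm2 (-0.12 with that term). In Mlkl-/- livers on HFD, leaving out 1 library gave -1.90 to 0.21 for Saa3, -0.93 to 0.23 for Orm2 and -2.81 to 0.22 for Lcn2. The interaction reversed for Saa1 (0.0247 with the rRNA-like level as a term, -2.22 to 0.61 without 1 library), Saa2 (0.0619, -2.84 to 0.74), Saa3 (-1.63 to 0.45 without 1 library), Hp (-0.0647 with library size only, -0.30 to 0.23), Itih3 (-0.20 to 0.42 without 1 library) and Itih4 (0.18 with the title code and 0.00875 with the rRNA-like level as a term, -0.52 to 0.26). The diet effect averaged over genotypes reversed for Saa1 (-1.61 to 0.28 without 1 library), Saa2 (-1.71 to 0.61), Saa3 (0.10 with the rRNA-like level as a term), Orm2 (0.0964 with library size only, -0.35 to 0.24) and Lcn2 (-0.33 to 1.21 without 1 library). None of these reversed values passed the test. The cause was not tested.

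Counts of the 10 genes called moved as follows. For HFD in WT livers the count of 2 became 1 with library size only, 0 with the rRNA-like level as a term, and 0 to 2 without 1 library. For HFD in Mlkl-/- livers the count of 0 became 1 with DESeq2 and 0 to 1 without 1 library. For Mlkl-/- over WT on HFD the count of 1 became 0 with the compared groups alone and 0 to 1 without 1 library; on ND it was 0 throughout. The interaction count of 0 became 1 with DESeq2. Averaged over genotypes, the diet count of 1 became 0 with the rRNA-like level as a term and 1 to 2 without 1 library. Averaged over diets, the genotype count of 0 became 2 with no filter beyond 1 count (Saa4 and Orm1), 5 with DESeq2, 1 when the title code was a term (Saa4) and 0 to 2 without 1 library, and the 10 genes at an unadjusted p under 0.05 became 6 to 10. Over all genes, DESeq2 called 395 genes where edgeR called 5 for Mlkl-/- over WT on HFD, and 46 where edgeR called 1 on ND. Saa3 held 55 to 670 counts a library and did not pass the filter of 5 CPM in 3 libraries, so it has no value there.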

Other observations

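Metallothionein genes, which bind zinc and copper and belong to the wider acute phase response, were higher without overlap in Mlkl-/- than in WT livers on HFD, as were 10.6% of all genes, and neither was called: Mt1 differed by 2.18 ± 0.81 (adjusted p 0.260 by edgeR) and Mt2 by 1.46 ± 0.66 (adjusted p 0.329). On ND both groups overlapped, at 1.42 ± 0.79 for Mt1 and 0.51 ± 0.65 for Mt2. Hamp, the iron hormone hepcidin, ran the other way on ND, at -1.63 ± 0.41 (adjusted p 0.540 by edgeR), and had a difference of 0.83 ± 0.41 on HFD. These genes were chosen after their values were seen.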
